A study of Mus musculus with 18 samples.

Results

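The integrins and the proteins of the basement membrane were followed in immortalized murine brown preadipocytes treated with vehicle or FGF6. The members are the protein-coding genes of the mouse annotation whose symbols mark an integrin subunit or a laminin chain, together with Nid1, Nid2, Hspg2, Agrn, Fn1, and Dag1. The rule reads names only and uses no measured value, although the members were chosen with earlier results of these data known. The rule gave 48 of the 48023 genes in the count table. These are 18 integrin alpha subunits, 9 beta subunits, 11 laminin chains, the 6 genes named above, and 4 genes named after an integrin that are not receptor subunits (Itgb1bp1, Itgb1bp2, Itgb3bp, and Itgbl1).

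The cells are one SV40 T antigen-immortalized line derived from stromal vascular cells of murine brown adipose tissue, and all groups share this line and its growth medium, high glucose DMEM with 10% FBS. The 6 groups were sequenced, with 3 libraries in each: vehicle for 4, 8, or 24 h and FGF6 (200 ng/ml) for 4, 8, or 24 h. The 18 libraries held between 24327816 and 33471980 counts, and each of the 18 was nearest to the mean of its own group. No source used here says whether the 3 libraries of a group came from separate cultures, so the tests measure the spread between libraries, which may be technical. Of the preadipocyte and stromal markers, Pdgfra (88.8 to 303 CPM), Pdgfrb, Cd34, Ly6a, Thy1, and Ebf2 were detected in every library, whereas Dlk1 had no count. The summed level of this marker list was 1326 to 1380 CPM in vehicle cells and 391 to 406 CPM in FGF6 cells at 24 h. Pdgfrb (log2 fold change -2.37), Ly6a (-2.91), and Pdgfra (-1.62) made up most of that sum, Thy1 (-0.19) and Ebf2 (-0.38) were lower by less, and Cd34 was higher (1.38). The part of these genes in the results below was not tested. In RNA from whole cultures, fewer cells of a type and less RNA per cell cannot be told apart.

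Vehicle replicate 3 at 24 h stood apart from its group. Its counts differed from those of the other two vehicle libraries at 24 h by a chi-square per degree of freedom of 34.8 and 38.2, whereas the 16 other pairs of libraries of a group gave 2.33 to 7.24. Against replicate 2, 10 genes carried 89.9% of the chi-square, and none of them was a member. Of the 10, CT010467.1 carried the most, at 10583 CPM in this library against 148 and 141 CPM in replicates 1 and 2. Lars2 came next (2445 against 197 and 208 CPM). The mitochondrial ribosomal RNAs mt-Rnr1 and mt-Rnr2 were also among the 10, at 1003 and 1566 CPM in this library. They held 248 and 438 CPM in replicate 1 and 259 and 455 CPM in replicate 2. Without this library 15 members were higher and 21 lower at 24 h (9 and 14 by at least 2-fold), against 16 and 21 (8 and 15) with it. Of the 37 members called at 24 h, 36 were still called in the same direction, and Itga10 lost its call (log2 fold change 0.46, edgeR FDR 0.0775). The log2 fold changes of the 37 moved by at most 0.42, for Itgb1bp2. The weak calls of Lama4 at 4 h (-0.19, edgeR FDR 0.0698) and Itgb4 at 8 h (-0.41, edgeR FDR 0.0744) were also lost, although their comparisons do not contain this library. All libraries were fitted together.

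Integrins are receptors made of one alpha and one beta subunit that tie the cytoskeleton to the surrounding matrix. The alpha subunit largely sets the ligand: some pairs bind fibronectin and other proteins with an RGD motif, others laminins, collagens, or the counter-receptors of leukocytes. Laminins are trimers of an alpha, a beta, and a gamma chain that assemble into a sheet at the cell surface. Nidogens (Nid1, Nid2) and perlecan (Hspg2) join that sheet to the type IV collagen network. Dystroglycan (Dag1) is another laminin receptor, agrin (Agrn) one of its ligands, and fibronectin (Fn1) an interstitial matrix protein. Mature fat cells sit in a basement membrane, whereas their fibroblast-like precursors are known for a fibronectin-rich matrix.

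Of the 48 members, 40 had enough counts for a test: 15 alpha subunits, 7 beta subunits, 9 laminin chains, the 6 other matrix genes, and 3 of the genes that are not receptor subunits. The 8 members left were close to silent. The most counts in any library were 12 for Itga11, 5 for Itga4, 3 for Itgam, 2 for Itgb2l, 9 for Itgb6, 13 for Itgbl1, 3 for Lama1, and 6 for Lamc3. Levels are CPM, counts scaled to a common library size after TMM normalization. A member is called higher or lower when its false discovery rate (FDR), the Benjamini-Hochberg adjusted p of edgeR's quasi-likelihood test over all 15071 genes tested, is under 0.05.

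FGF6 moved these genes in both directions, and more members were lower at 24 than at 4 h. At 4 h, 16 of the 40 members (40%) were higher and 16 lower. Over all genes tested, 28.6% were higher and 34.2% lower at that time. At 8 h, 15 members were higher (37.5%, against 32.4% of all genes) and 19 lower (47.5%, against 38.4%). At 24 h, 16 were higher (40%, against 35.9% of all genes), 21 lower (52.5%, against 37.9%), and 3 (Itga8, Itga9, and Itgae) were not called. The median log2 fold change of the members was 0.03 at 4 h, -0.17 at 8 h, and -0.45 at 24 h, whereas that of all genes tested was -0.05, -0.05, and -0.02. The share of members called higher was thus near the share over all genes at 8 and 24 h.

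With at least a 2-fold change as a further requirement, 6 members were higher and 3 lower at 4 h, where all genes gave 4.96% and 6.38%. The counts were 8 higher and 6 lower at 8 h (all genes, 7.39% and 10.9%). At 24 h, 8 members were higher and 15 lower by at least 2-fold, beside 7.44% and 15.3% of all genes. The FGF6 and vehicle libraries did not overlap for 29 members at 4 h, 33 at 8 h, and 37 at 24 h. These are 72.5%, 82.5%, and 92.5% of the members tested, against 66.2%, 73.8%, and 74.8% of all genes. The 3 comparisons use separate libraries. Of the members, 13 were higher at all 3 times (Fn1, Itga2, Itga3, Itga5, Itga6, Itga7, Itgav, Itgb1, Itgb2, Itgb3, Itgb7, Lamb1, and Lamb3), and 14 were lower at all 3 (Dag1, Hspg2, Itga1, Itga2b, Itgad, Itgb1bp1, Itgb3bp, Itgb4, Itgb5, Itgb8, Lama4, Lama5, Lamb2, and Nid2). These are 13 and 14 of 40, and of all genes tested 20.4% were higher and 23.0% lower at all 3 times. Some of the calls behind these counts were lost in other analyses given below, such as those of Lama4, Itgad, and Fn1 at 4 h and of Itgb4 at 8 h.

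**Figure D1:**
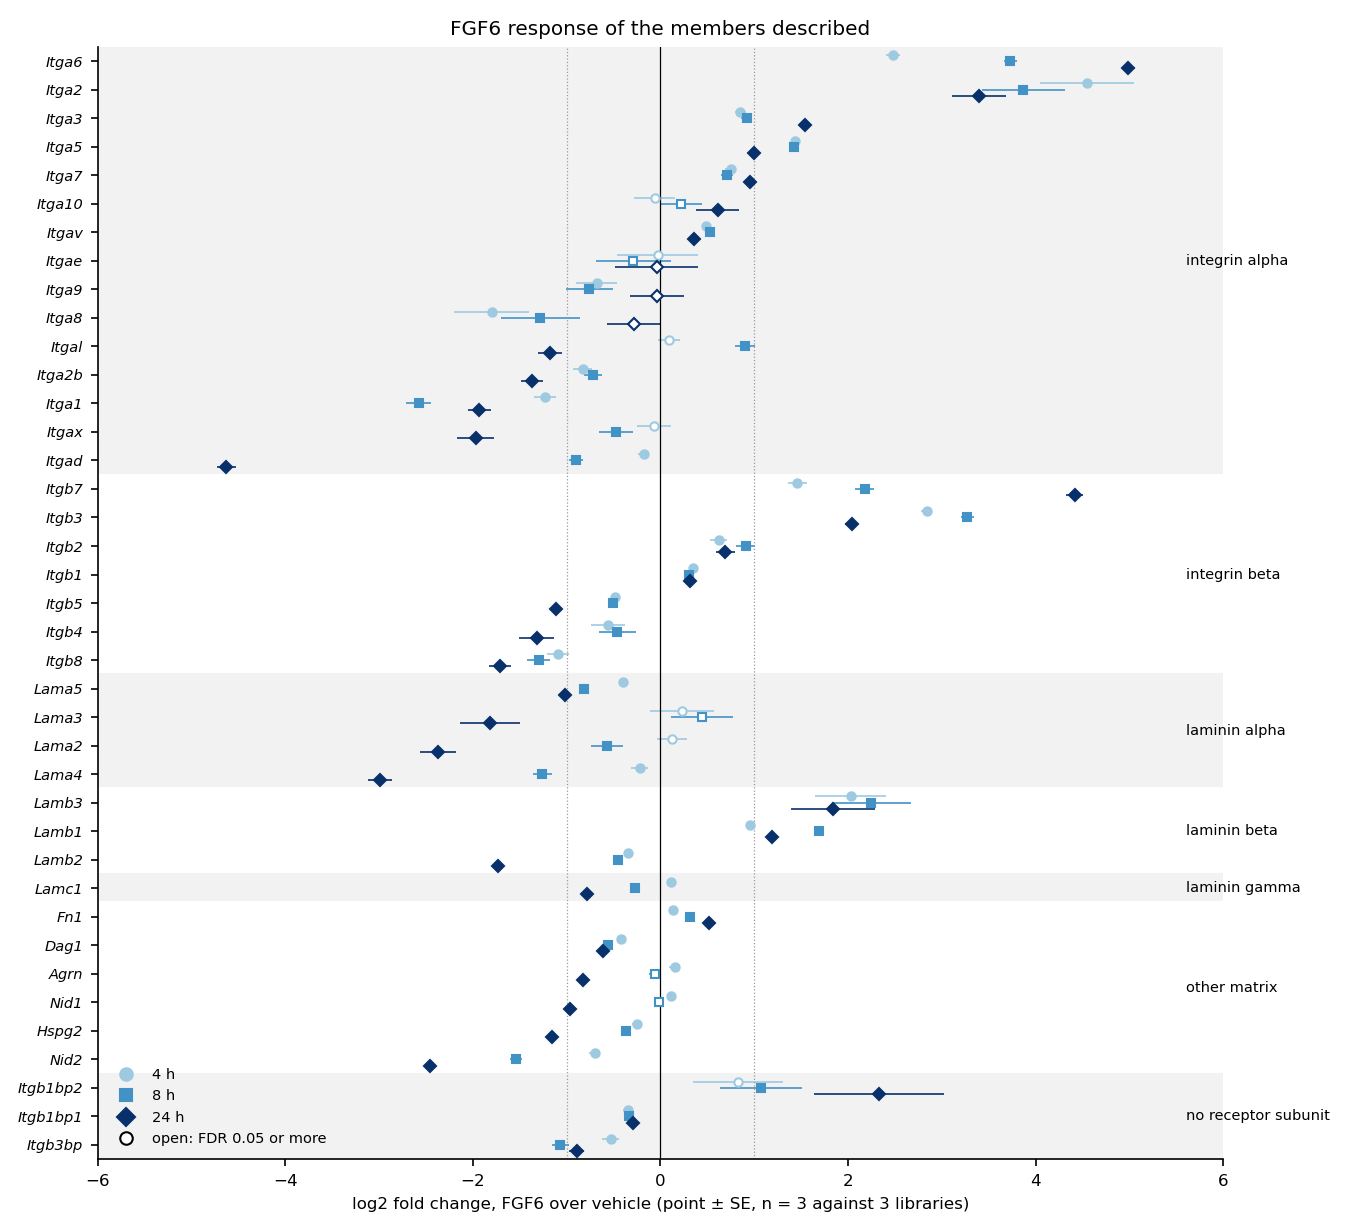
Log2 fold change of FGF6 over vehicle for the members described, grouped by class, with circles for 4 h, squares for 8 h, and diamonds for 24 h. Bars are the standard error implied by edgeR's test of 3 against 3 libraries, with the spread fitted over all 18 libraries. Open symbols are values not called, and dotted lines mark a 2-fold change. The diamonds of Itga6 (4.99) and Itgb7 (4.42) lie farthest to the right and that of Itgad (-4.63) farthest to the left, and the circle of Itga2 is a fitted value against vehicle libraries at the floor, so its size is not a measured fold.

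The RefSeq promoter windows of the members (GRCm38.p6, 250 bases before to 50 after a transcription start) were also read. A window was found for 31 of the 48 members, 36 windows in all. The 6 shown belong to 3 members that were higher and 3 that were lower at 24 h and on which the results below turn. They run 5′ to 3′ on the gene's strand, from 250 bases before the RefSeq start to that start or to the first annotated exon base, if earlier, and capitals mark the GC box letters GGGCGG or their complement.

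Itga5 (chr15:103366792-103367041, minus strand): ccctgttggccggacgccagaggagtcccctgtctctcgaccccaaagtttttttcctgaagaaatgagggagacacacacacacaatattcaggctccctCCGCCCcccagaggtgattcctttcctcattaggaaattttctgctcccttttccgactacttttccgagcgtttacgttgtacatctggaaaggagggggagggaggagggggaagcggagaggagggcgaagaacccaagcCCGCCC

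Itgb7 (chr15:102231945-102232185, minus strand): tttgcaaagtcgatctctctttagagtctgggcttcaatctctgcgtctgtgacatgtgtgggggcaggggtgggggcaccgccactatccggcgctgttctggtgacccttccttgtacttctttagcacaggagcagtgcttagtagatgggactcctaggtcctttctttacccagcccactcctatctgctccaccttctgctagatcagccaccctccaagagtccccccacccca

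Lamb1 (chr12:31265043-31265233, plus strand): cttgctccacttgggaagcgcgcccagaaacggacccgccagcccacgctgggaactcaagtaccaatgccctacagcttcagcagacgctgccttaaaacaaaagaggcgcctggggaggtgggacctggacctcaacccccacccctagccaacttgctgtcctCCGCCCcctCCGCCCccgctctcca

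Lamb2 (chr9:108479612-108479735, plus strand): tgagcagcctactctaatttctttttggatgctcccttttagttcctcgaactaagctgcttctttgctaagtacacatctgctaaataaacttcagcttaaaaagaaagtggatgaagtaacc

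Lama5 (chr2:180225860-180226109, minus strand): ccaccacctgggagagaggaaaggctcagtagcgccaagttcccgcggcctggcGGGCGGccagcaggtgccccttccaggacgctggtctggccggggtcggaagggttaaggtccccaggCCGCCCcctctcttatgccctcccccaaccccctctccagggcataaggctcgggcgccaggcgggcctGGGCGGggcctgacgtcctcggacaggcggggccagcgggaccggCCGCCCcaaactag

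Itga1 (chr13:115101965-115102214, minus strand): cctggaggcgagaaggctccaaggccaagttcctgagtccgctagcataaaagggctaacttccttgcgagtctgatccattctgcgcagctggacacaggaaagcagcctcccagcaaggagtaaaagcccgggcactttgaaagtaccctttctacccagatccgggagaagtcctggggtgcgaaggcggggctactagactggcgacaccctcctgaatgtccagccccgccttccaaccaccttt

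The first 3 genes rose and the last 3 fell with FGF6. The GC box was found on either strand in the windows of 16 of the 31 members, with 2 matches each in the Itga5 and Lamb1 stretches, 4 in that of Lama5, and none in those of Itgb7, Lamb2, and Itga1. A member counts here when any of its windows holds the letters. By window, the GC box was in 19 of the 36 member windows and in 35.7% of all 32851 windows. Among members with a window, it was present in 6 of 9 that were higher and 7 of 14 that were lower at 24 h. The AP-1 letters TGANTCA were found in 3 of the 36 windows, for 3 members (Itga3, Itga9, and Itgax; 7.81% of all windows). The ETS letters CCGGAA were found in 5 of the 36, for 5 members (Itga3, Itgb1, Itgb1bp1, Itgb3bp, and Nid1; 14.9% of all windows). No member window held TATAAA, which 13.6% of all windows did. Both strands were searched, and none of the 4 motifs contains another. A match describes the letters only.

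Among the integrins, the alpha subunits classed here as laminin receptors (Itga3, Itga6, and Itga7) were each higher at 4, 8, and 24 h, as were 20.4% of all genes tested. The median log2 fold changes of these 3 subunits were 0.85, 0.92, and 1.54. Itga6 (chr2:71745616-71858416) had the largest increase of any member called higher at 24 h. Its vehicle libraries held 7.91, 8.22, and 8.55 CPM at 4 h, 4.39, 5.09, and 3.87 CPM at 8 h, and 4.97, 4.95, and 5.59 CPM at 24 h. Its FGF6 libraries held 44.2, 44.4, and 48.8 CPM at 4 h, 56.2, 59.9, and 61.8 CPM at 8 h, and 158, 164, and 170 CPM at 24 h. The treatments did not overlap at any time, and the FGF6 libraries at 24 h were above those at 4 and 8 h. The increase was 5.56-fold at 4 h, 13.3-fold at 8 h, and 31.9-fold at 24 h (log2 fold change 4.99 ± 0.07 SE, edgeR FDR 5.19e-27). Per kilobase of exon, Itga6 made up 10.1% of all alpha subunits in FGF6 cells at 24 h, and its mean level was 18.2 ± 0.636 CPM per kb (SD, n = 3) against 0.573 ± 0.0404 in vehicle cells.

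Itga3, the other widely expressed laminin receptor subunit, stood at 69.0, 63.9, and 63.8 CPM in vehicle and at 181, 194, and 198 CPM in FGF6 libraries at 24 h, with no overlap. It was 1.80-fold higher at 4 h, 1.89-fold at 8 h, and 2.91-fold at 24 h (log2 fold change 1.54 ± 0.05 SE, edgeR FDR 1.38e-18). Itga7, best known from muscle, rose less, from 12.94 ± 0.234 to 25.24 ± 0.130 CPM at 24 h (SD, n = 3; 1.95-fold). The known beta partners of these subunits are Itgb1 and, for Itga6, Itgb4. Itgb1 was higher at each time by 1.23- to 1.27-fold, and its effect did not differ detectably between 24 and 4 h (difference of log2 fold change -0.03 ± 0.05 SE, edgeR FDR 0.622). Itgb4 went the other way, with 3.50, 3.17, and 3.66 CPM in vehicle and 0.985, 1.46, and 1.65 CPM in FGF6 libraries at 24 h (2.50-fold lower, edgeR FDR 8.09e-07). Its weaker call at 8 h (edgeR FDR 0.0471) did not hold in 5 other analyses, DESeq2 and limma with voom among them.

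The subunits that bind fibronectin and other RGD proteins divided. Itga5, the main fibronectin receptor subunit, was the most abundant alpha subunit per length in vehicle cells, at 67.7% of all alpha subunits at 4 h and 54.7% at 24 h. Its levels were 425, 424, and 405 CPM in vehicle and 1125, 1152, and 1131 CPM in FGF6 libraries at 4 h, and 257, 246, and 236 CPM against 477, 490, and 509 CPM at 24 h. The groups were far apart at both times. The fold was 2.72 at 4 h, 2.67 at 8 h, and 2.00 at 24 h, just short of the 2-fold requirement, and it was smaller at 24 than at 4 h (difference of log2 fold change -0.45 ± 0.05 SE, edgeR FDR 5.47e-08). In vehicle cells alone, Itga5 was lower at 24 than at 4 h (log2 fold change -0.76). Itgav, which pairs with several beta subunits, was 1.40-, 1.45-, and 1.28-fold higher. Itga2b, the platelet partner of Itgb3, was lower throughout, by 2.59-fold at 24 h (from 8.891 ± 0.880 to 3.427 ± 0.289 CPM, SD, n = 3). Itga8, at no more than 2.04 CPM in any library, was lower at 4 h (3.48-fold) and 8 h (2.42-fold) and was not called at 24 h (log2 fold change -0.28 ± 0.29 SE).

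Of the beta subunits that pair with Itgav, Itgb3 and Itgb1 rose and Itgb5 and Itgb8 fell at all 3 times. Itgb6, another partner, had too few counts for a test. Itgb3 libraries held 10.8, 11.3, and 9.11 CPM with vehicle and 72.6, 77.2, and 74.3 CPM with FGF6 at 4 h. At 8 h they held 4.39, 4.10, and 4.31 CPM against 42.0, 41.1, and 40.6 CPM, and at 24 h 5.22, 5.28, and 6.31 CPM against 23.2, 22.9, and 22.4 CPM. The FGF6 groups did not overlap the vehicle groups, and the increase was 7.18-fold at 4 h, 9.65-fold at 8 h, and 4.10-fold at 24 h. The effect at 24 h was smaller than that at 4 h (difference -0.81 ± 0.10 SE on the log2 scale, edgeR FDR 2.43e-07). Itgb5, next to Itgb1 in level per length in vehicle cells, fell from 16.1% to 9.37% of all beta subunits at 4 h and from 12.5% to 4.72% at 24 h. Its libraries held 121, 128, and 129 CPM in vehicle and 59.6, 54.0, and 61.6 CPM in FGF6 cells at 24 h (2.15-fold lower, edgeR FDR 2.77e-17). Itgb8, whose pair with Itgav activates latent TGF-beta, was 2.13-, 2.46-, and 3.26-fold lower. Per length, Itgb3 remained well under Itgb5, at 3.86 ± 0.0700 and 16.4 ± 1.11 CPM per kb (SD, n = 3) in FGF6 cells at 24 h.

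**Figure D2:**
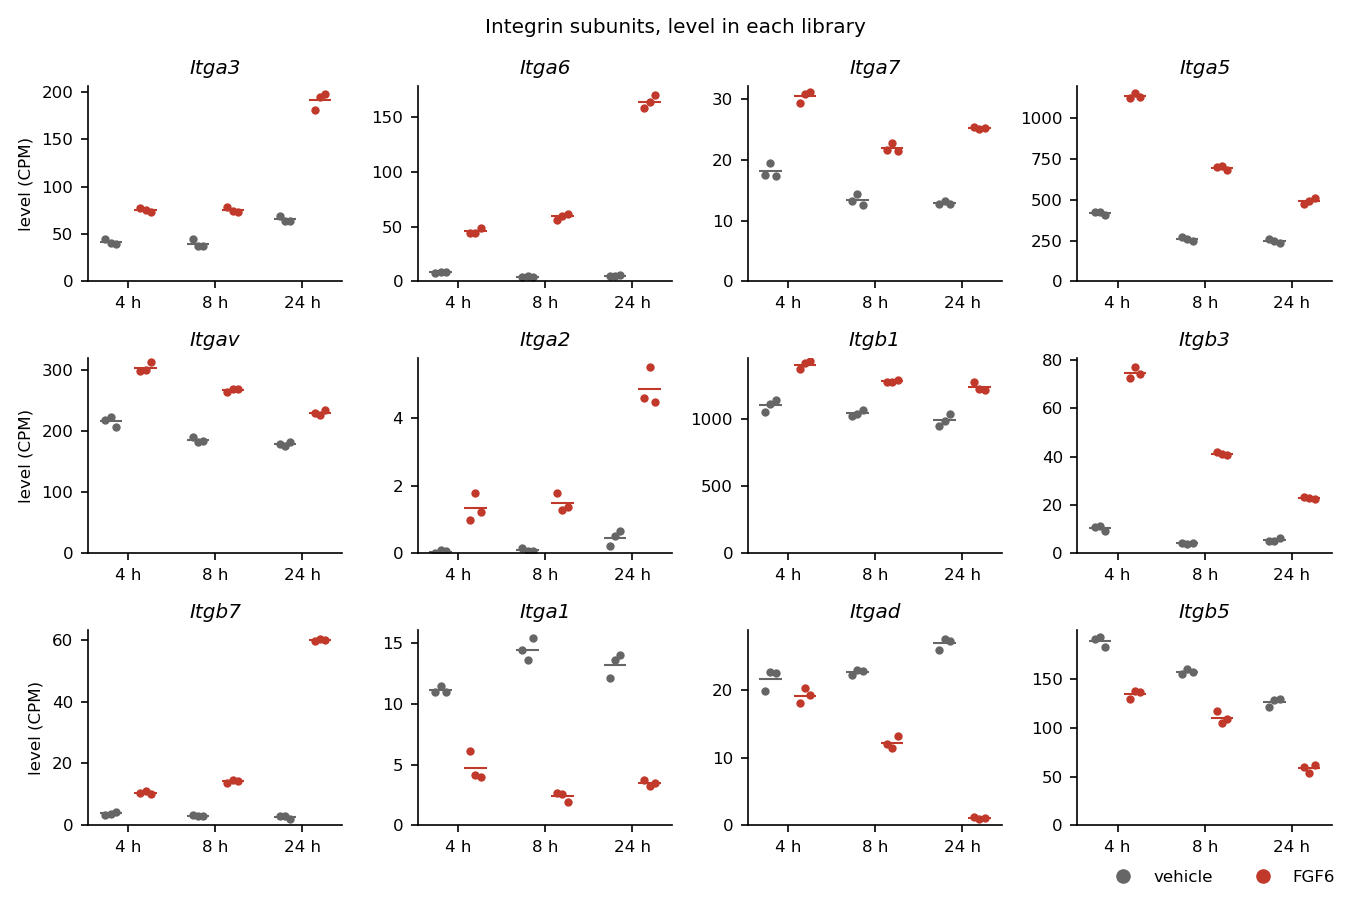
Level of 12 integrin subunits in CPM on linear axes that start at 0, with a point for each library (grey vehicle, red FGF6) and a line at the mean of 3. Itga6, Itga3, and Itgb7 are highest at 24 h with FGF6, Itgb3 and Itga5 are highest at 4 h, and Itgad falls to between 0.964 and 1.20 CPM at 24 h.

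The collagen-binding alpha subunits moved in opposite directions. Itga1 fell, with 11.0, 11.5, and 11.0 CPM in vehicle and 6.10, 4.18, and 3.98 CPM in FGF6 libraries at 4 h. It then stood at 14.4, 13.6, and 15.4 against 2.67, 2.55, and 1.93 CPM at 8 h and at 12.1, 13.6, and 14.0 against 3.76, 3.21, and 3.49 CPM at 24 h. The groups were separate at each time, and the decrease was 2.34-fold, 5.99-fold, and 3.80-fold (log2 fold change -1.93 ± 0.12 SE at 24 h, edgeR FDR 3.04e-13). Itga2, the other main collagen receptor subunit, rose from near the detection floor. Its vehicle libraries at 4 h held 0, 0.0927, and 0.0668 CPM, or at most 3 counts each, and its FGF6 libraries 0.998, 1.78, and 1.22 CPM. Against a floor of 3 counts per library, the mean of the FGF6 libraries at 4 h was at least 13.3-fold higher, and floors of this kind cover counting error only. At 24 h the values were 0.210, 0.513, and 0.673 CPM with vehicle and 4.60, 5.50, and 4.48 CPM with FGF6 (10.5-fold, edgeR FDR 6.46e-11). Itga10, of which 33.5% of the exonic bases are shared with the gene model Gm42957, was called at 24 h only (1.53-fold higher, edgeR FDR 0.0187), a call lost without vehicle replicate 3 at that time. The difference of its effect between 24 and 4 h was not called (edgeR FDR 0.0796). Gm42957 shares these bases on the same strand, so the counts of Itga10 are uncertain under any strand setting. For genes that overlap on opposite strands, counts are uncertain because the strand setting of the counting is not stated. Such members include Itgb3bp (8.6% of exonic bases shared, with Pgm1), Nid2 (8.4%, with Rtraf), and Itgb4 (7.7%, with B230344G16Rik).

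Subunits best known from leukocytes were also present. At 24 h Itgb7 and Itgb2 were higher, Itgad, Itgax, and Itgal were lower, and Itgae was not called. At 8 h Itgal and Itgb2 were both higher. Itgb7 (chr15:102215995-102231944), the beta subunit of lymphocyte homing receptors, held 3.34, 3.74, and 4.47 CPM with vehicle and 10.5, 11.0, and 10.2 CPM with FGF6 at 4 h. At 8 h it held 3.28, 3.15, and 2.98 against 13.7, 14.8, and 14.2 CPM, and at 24 h 3.01, 3.11, and 2.14 against 59.7, 60.2, and 59.8 CPM. The groups did not overlap, and the increase grew from 2.76-fold to 4.53-fold and 21.4-fold (log2 fold change 4.42 ± 0.09 SE at 24 h, edgeR FDR 8.38e-24). Per length, Itgb7 passed Itgb5 at 24 h, at 21.6 ± 0.0860 CPM per kb against 16.4 ± 1.11 (SD, n = 3), and made up 6.21% of all beta subunits. Its known alpha partners were hardly counted: Itga4 had at most 5 counts in a library and Itgae between 7 and 28, with no call for Itgae at any time. Itgb2, the common beta subunit of leukocyte integrins, was 1.53-, 1.88-, and 1.62-fold higher.

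The tested alpha partners of Itgb2 (Itgad, Itgax, and Itgal) were lower at 24 h, as were 37.9% of all genes tested. Itgam, another partner, had at most 3 counts in a library and was not tested. Itgad, a macrophage subunit, stood at 21.66 ± 1.51 CPM in vehicle and 19.13 ± 1.10 CPM in FGF6 libraries at 4 h (SD, n = 3), where the groups overlapped. It held 22.2, 22.9, and 22.8 against 12.0, 11.4, and 13.2 CPM at 8 h, and 25.9, 27.5, and 27.2 against 1.20, 0.964, and 1.06 CPM at 24 h. The decrease thus came late, from 1.13-fold at 4 h to 1.86-fold at 8 h and 24.8-fold at 24 h (log2 fold change -4.63 ± 0.10 SE, edgeR FDR 9.67e-23). Its weak call at 4 h did not hold with DESeq2 (adjusted p = 0.0653), with no low-count filter, or when the libraries of that time were fitted alone. The gene models Gm17831, Gm39091, 4931431B13Rik, and Cox6a2 share 19.7% of its exonic bases. Itgax was not called at 4 h and was 3.92-fold lower at 24 h, with 3.01, 3.50, and 4.12 CPM in vehicle and 0.839, 0.822, and 1.03 CPM in FGF6 libraries. Itgal was not called at 4 h, higher at 8 h (1.86-fold, from 4.697 ± 0.429 to 8.743 ± 0.471 CPM, SD, n = 3), and lower at 24 h (2.26-fold, edgeR FDR 6.48e-09). Of the 7 leukocyte markers, Fcer1g had at most 11 counts in a library, Tyrobp none, and Ptprc, Adgre1, and Laptm5 at most 2. Only Cd68 and Csf1r were tested, and the summed level of the list was 6.42 to 8.13 CPM in vehicle and 3.36 to 4.18 CPM in FGF6 cells at 24 h. Itga9, a receptor subunit for tenascin and other ligands, was lower at 4 h (1.61-fold) and 8 h (1.69-fold) and not called at 24 h.

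The summed level of the alpha subunits per length was 125 ± 3.53 CPM per kb in vehicle and 288 ± 2.86 in FGF6 cells at 4 h, and 91.2 ± 1.97 against 179 ± 5.6 at 24 h (SD, n = 3). That of the beta subunits was 331 ± 10.6 against 405 ± 9.35 at 4 h and 283 ± 11.4 against 348 ± 7.81 at 24 h. Itga5 was the largest part of the alpha sums, at 84.7 CPM per kb in vehicle and 230 in FGF6 cells at 4 h. At 24 h it stood at 49.9 and 99.8 CPM per kb. Itgb1 made up between 80.7% and 87.1% of the beta subunits in every library. These sums are given as levels, with no test.

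Of the 9 laminin chains tested, 3 were higher (33.3%, against 35.9% of all genes) and 6 lower (66.7%, against 37.9%) at 24 h, with a median log2 fold change of -1.02. The share of chains called higher was thus near that of all genes. At 4 h there were 3 of each, beside 28.6% of all genes higher and 34.2% lower. The 4 alpha chains tested were each lower by at least 2-fold at 24 h, as were 15.3% of all genes. At 4 h 2 of them were lower, by 1.16- and 1.32-fold (all genes, 34.2% lower), and 2 were not called. The alpha chain carries the sites for cell receptors, and the effect on each of the 4 was smaller (more negative) at 24 than at 4 h.

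Lama5, the broadly expressed alpha chain, was the most abundant per length, with 84.8% of all alpha chains in vehicle cells at 4 h. Its libraries held 118, 117, and 107 CPM with vehicle and 84.3, 86.4, and 88.2 CPM with FGF6 at 4 h, and 74.5, 73.6, and 71.1 against 35.1, 34.4, and 38.9 CPM at 24 h. The groups were separate, and the decrease was 1.32-fold, 1.77-fold, and 2.02-fold over the 3 times. Lama4, the chain typical of vessels and of mesenchymal and fat cells, fell much further. It held 16.4, 19.2, and 17.7 CPM with vehicle and 13.1, 16.6, and 16.2 CPM with FGF6 at 4 h, with overlap, and 17.4, 16.6, and 16.7 against 2.04, 2.21, and 2.13 CPM at 24 h (7.93-fold lower, edgeR FDR 5.21e-17). At 4 h its call (edgeR FDR 0.0386) was lost with DESeq2 (adjusted p = 0.0798), under a stricter filter (10 counts or more in each of the libraries), and with the libraries of that time fitted alone. Lama2, the muscle and nerve chain, was not called at 4 h and was 5.16-fold lower at 24 h, with 6.20, 8.08, and 6.64 CPM against 1.46, 0.893, and 1.72 CPM. Lama3, the epithelial chain, was not called at 4 or 8 h and fell from 1.821 ± 0.355 to 0.5076 ± 0.165 CPM at 24 h (SD, n = 3; 3.53-fold, edgeR FDR 1.26e-05). With the other chains falling further, Lama5 made up 91.1% of the alpha chains per length in FGF6 cells at 24 h against 76.2% in vehicle cells.

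The major beta chains moved in opposite directions. Lamb1 (chr12:31265234-31329644) held 367, 365, and 355 CPM with vehicle and 680, 706, and 715 CPM with FGF6 at 4 h, 272, 272, and 260 against 871, 875, and 856 CPM at 8 h, and 267, 262, and 250 against 597, 601, and 587 CPM at 24 h. Lamb2 (chr9:108479736-108490530) held 232, 233, and 220 against 186, 179, and 173 CPM at 4 h, 226, 228, and 213 against 164, 162, and 162 CPM at 8 h, and 237, 254, and 243 against 74.4, 72.9, and 74.5 CPM at 24 h. Neither gene overlapped between groups at any time, and they lay on opposite sides. Lamb1 was 1.93-fold higher at 4 h, 3.24-fold at 8 h, and 2.29-fold at 24 h (edgeR FDR 2.28e-21). Lamb2 was 1.27-, 1.37-, and 3.31-fold lower (edgeR FDR 4.59e-23 at 24 h). Per length, Lamb1 supplied 39.4% of the beta chains in vehicle cells at 24 h (range 38.6 to 40.9%) and 83.0% in FGF6 cells (82.8 to 83.4%). At 4 h the shares were 49.3% and 70.4%. Lamb3, a chain of epithelial laminin, was higher at all times from a level near the floor (0.2973 ± 0.145 to 1.243 ± 0.226 CPM at 4 h, SD, n = 3; 4.07-fold).

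Lamc1, the gamma chain of most laminins, supplied between 94.5% and 98.9% of the gamma chains per length in every library. Its call changed direction with time. It was 1.08-fold higher at 4 h, where 666, 652, and 627 CPM faced 693, 710, and 692 CPM, and 1.71-fold lower at 24 h, where 451, 490, and 482 CPM faced 272, 276, and 282 CPM. The small increase at 4 h was lost when library sizes alone were used (log2 fold change 0.01) or with upper-quartile factors (0.05).

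**Figure D3:**
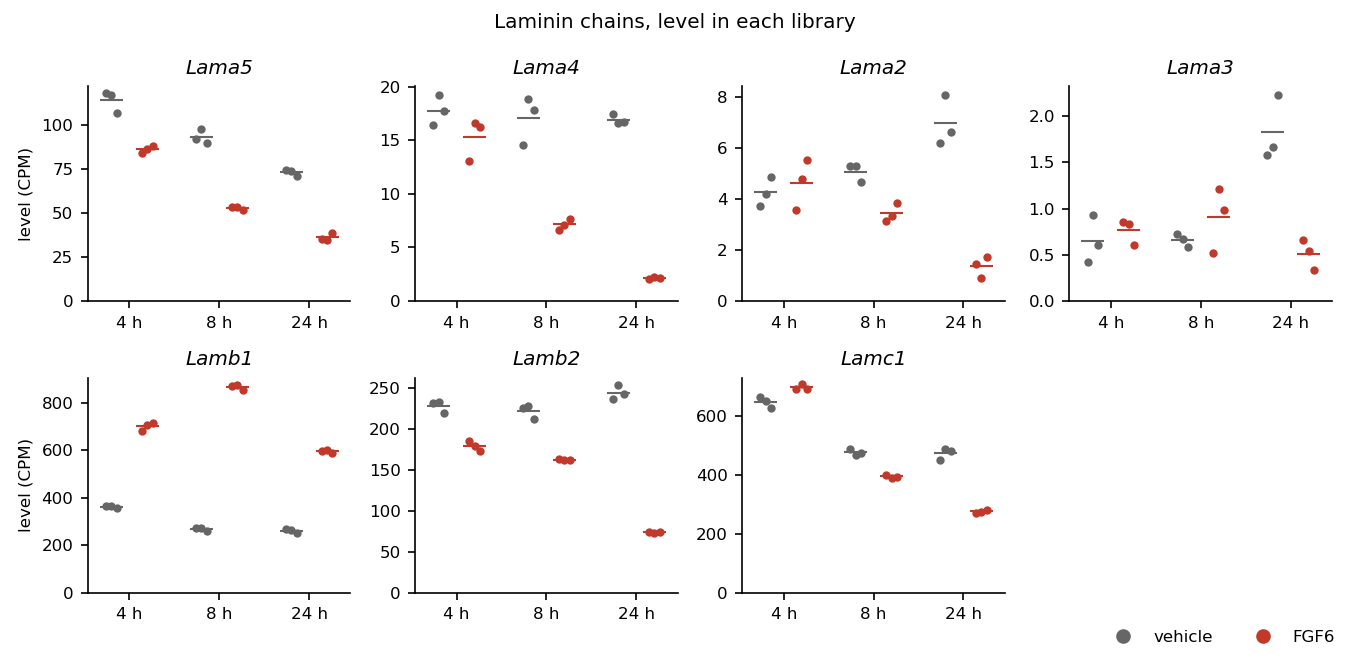
Level of 7 laminin chains in CPM on linear axes that start at 0, with a point for each library (grey vehicle, red FGF6) and a line at the mean of 3. The 4 alpha chains and Lamb2 are lowest with FGF6 at 24 h, and Lamb1 is above vehicle at every time and highest at 8 h.

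**Figure D4:**
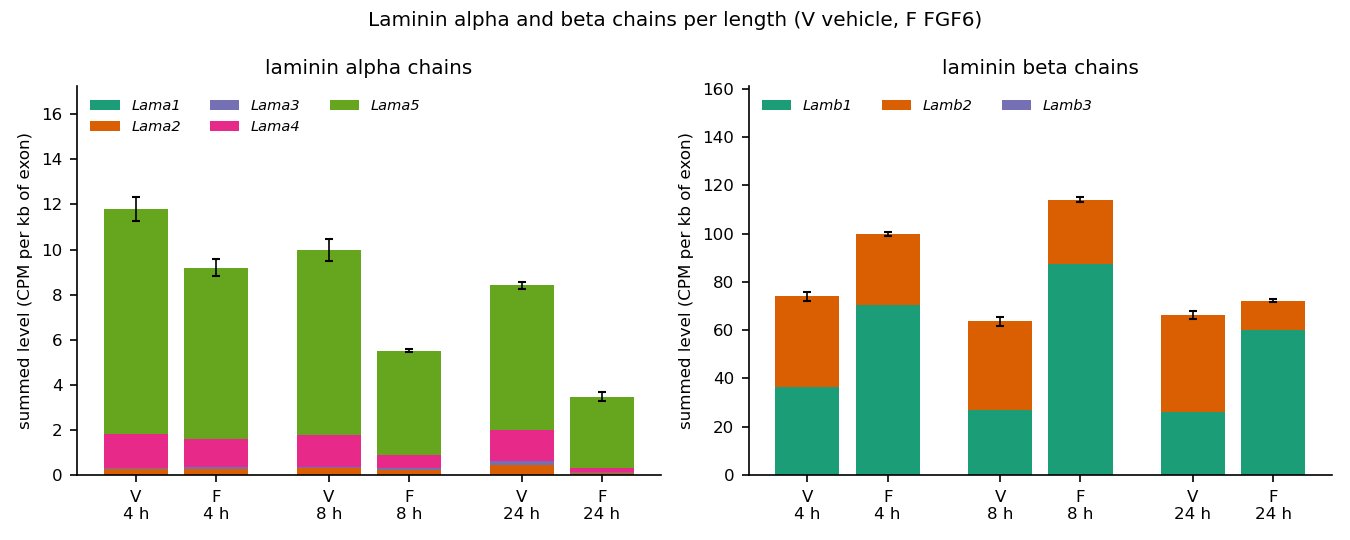
Summed level of laminin alpha and beta chains per kilobase of exon for vehicle (V) and FGF6 (F), stacked by gene, with error bars for the SD of the sum over 3 libraries. At 24 h the alpha sum is 8.42 with vehicle and 3.48 with FGF6, and the beta sum is 66.4 and 72.3 CPM per kb, of which Lamb1 is the larger part with FGF6.

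Summed per length, the alpha chains stood at 8.42 ± 0.153 CPM per kb in vehicle and 3.48 ± 0.218 in FGF6 cells at 24 h (SD, n = 3), and the gamma chains at 58.4 ± 2.54 and 35.2 ± 0.538, with no overlap between libraries. The beta sum was 66.4 ± 1.57 in vehicle and 72.3 ± 0.638 in FGF6 cells. In vehicle cells the alpha chains were the scarcest of the 3 chain types at each time, at 8.42 to 11.8 CPM per kb against 58.4 to 79.8 for the others. These sums were not tested.

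The linkers of the basement membrane fell, whereas fibronectin rose. Nid1 and Nid2 encode nidogens. Nid1 held 887, 892, and 877 CPM with vehicle and 936, 964, and 970 CPM with FGF6 at 4 h, and 847, 867, and 883 against 451, 437, and 445 CPM at 24 h. The order of the groups was thus opposite at 4 and 24 h, and the fold was 1.08 higher at 4 h and 1.95 lower at 24 h (edgeR FDR 6.50e-21). Its call at 4 h was lost with library sizes alone (log2 fold change 0.01) and with upper-quartile factors (0.06), and at 8 h it was not called. Nid2 held 42.0, 43.6, and 44.7 CPM with vehicle and 28.1, 26.4, and 25.7 CPM with FGF6 at 4 h, 50.9, 51.4, and 49.9 against 17.4, 17.6, and 17.4 CPM at 8 h, and 85.1, 97.6, and 97.2 against 16.3, 16.1, and 18.3 CPM at 24 h. Vehicle libraries were higher at 24 than at 4 h (log2 fold change 1.10), and the decrease with FGF6 was 1.62-, 2.90-, and 5.52-fold (edgeR FDR 2.18e-22 at 24 h).

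Hspg2, the heparan sulfate proteoglycan perlecan, was 1.19-fold lower at 4 h and 2.24-fold lower at 24 h, with 1242, 1234, and 1130 CPM in vehicle and 535, 536, and 539 CPM in FGF6 libraries. Agrn, which like perlecan carries heparan sulfate, was 1.11-fold higher at 4 h with overlapping libraries, a call lost with library sizes alone and with upper-quartile factors, and was 1.78-fold lower at 24 h (163.4 ± 9.37 to 91.94 ± 5.10 CPM, SD, n = 3). Dag1 was lower throughout, by 1.34-, 1.47-, and 1.53-fold, with 370, 398, and 396 CPM against 248, 255, and 259 CPM at 24 h. Fn1, the most abundant of these 6 genes per length, held 2070, 2096, and 1992 CPM with vehicle and 2158, 2266, and 2291 CPM with FGF6 at 4 h, and 1562, 1678, and 1603 against 2275, 2308, and 2352 CPM at 24 h. It was 1.09-, 1.24-, and 1.43-fold higher. In vehicle cells alone Fn1 was lower at 24 than at 4 h (log2 fold change -0.35). The increase at 4 h was not called with library sizes alone (log2 fold change 0.02).

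The 3 tested genes that are named after an integrin but are no receptor subunits are described for completeness. Itgb1bp1, which encodes an Itgb1 tail-binding protein that restrains integrin activation, was 1.28-, 1.27-, and 1.23-fold lower. Its exons share 16.9% of their bases with Asap2 and Cpsf3, so its counts are uncertain. Itgb3bp, which encodes a kinetochore protein, was 1.45-, 2.10-, and 1.85-fold lower. Itgb1bp2, a muscle protein, had at most 32 counts in a library, was not called at 4 h, and was higher at 8 h (2.09-fold) and 24 h (5.02-fold, edgeR FDR 0.00384).

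The effect of FGF6 was then compared between 24 and 4 h by the interaction of treatment and time. It was larger (more positive) at 24 h for 8 of the 40 members and smaller for 23, with a median difference of -0.49 on the log2 scale. Over all genes tested, 28.3% had a larger and 25.2% a smaller effect, with a median difference of 0.03. Itgb7 (2.95 ± 0.14 SE), Itga6 (2.52 ± 0.10), and Itga8 (1.52 ± 0.50) had the largest positive differences among those called. Itgad (-4.46 ± 0.13 SE), Lama4 (-2.77 ± 0.16), and Lama2 (-2.48 ± 0.25) had the largest negative ones. In vehicle cells alone, 15 members were higher and 19 lower at 24 than at 4 h (30.9% and 30.0% of all genes), with a median of -0.19. The vehicle change was in the same direction as the late FGF6 change for some members, such as Itga3 (0.65 on the log2 scale in vehicle), and in the opposite direction for others, such as Nid2 (1.10) and Lama2 (0.72).

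Genes that work with these members were followed in 4 lists, which were also chosen with earlier results of these data known. Of 23 other basement membrane components tested, 19 were lower at 24 h (82.6%, against 37.9% of all genes) and 2 higher (8.7%, against 35.9%), with a median log2 fold change of -1.09. By at least 2-fold, 14 were lower (60.9%, against 15.3% of all genes) and 1 higher. At 4 h, 11 were lower (47.8%, against 34.2%) and 8 higher (34.8%, against 28.6%). The type IV collagen chains Col4a1 and Col4a2, which form the network that nidogen and perlecan join, were both lower at 24 h. Col4a1 held 1399, 1417, and 1371 CPM in vehicle and 672, 690, and 704 CPM in FGF6 libraries, and Col4a2 held 619, 613, and 606 against 298, 313, and 326 CPM. The groups were separate, with log2 fold changes of -1.02 and -0.97. Col15a1, a collagen that links basement membrane to stroma, was higher in FGF6 libraries at 4 h (111 to 124 CPM against 68.9 to 78.2) and lower at 24 h (5.22 to 7.45 against 32.8 to 39.7 CPM, log2 fold change -2.57). Smoc1, a calcium-binding matrix protein, was the larger of the 2 increases (0.1602 ± 0.0865 to 2.129 ± 0.123 CPM at 24 h, SD, n = 3), and Fras1 fell at a level under 1 CPM.

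Among 24 tested ligands of integrins outside the basement membrane, 14 were lower (58.3%, against 37.9% of all genes) and 7 higher (29.2%, against 35.9%) at 24 h, with a median of -1.20. The matricellular protein Postn fell from 555, 664, and 658 CPM to 20.5, 21.2, and 25.5 CPM (log2 fold change -4.80 ± 0.08 SE), and Comp, a cartilage matrix protein, from 4.34, 4.46, and 4.79 CPM to 0.292, 0.143, and 0.514 CPM. Tnn had no count in any FGF6 library at 24 h and 0.560 to 1.35 CPM in vehicle. Against a floor of 3 counts per library, the mean of its vehicle libraries was at least 8.99-fold higher. Spp1 (osteopontin), a ligand of Itgav and Itga9 pairs, and Tnc (tenascin C), a ligand of Itga9, were called higher at 24 h with log2 fold changes of 3.14 and 2.51 and were named after their values were seen.

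Of 41 tested adaptors and activators of integrins, 19 were higher (46.3%, against 35.9% of all genes) and 18 lower (43.9%, against 37.9%) at 24 h, with a median of 0.14. Talin (Tln1), which switches integrins on, was 1.12-fold higher at 4 h and lower at 24 h (from 605, 618, and 606 CPM to 523, 516, and 526 CPM, log2 fold change -0.22). Vinculin (Vcl), its partner at adhesions, fell from 221, 225, and 233 CPM to 119, 119, and 120 CPM (log2 fold change -0.93). Parvb, a parvin that binds integrin-linked kinase, rose from 83.2, 81.7, and 80.2 CPM to 272, 283, and 280 CPM (log2 fold change 1.77), whereas tensin (Tns1) fell (118 to 127 CPM in vehicle, 29.9 to 33.2 CPM in FGF6 libraries), as did caveolin (Cav1, 365 to 374 and 117 to 120 CPM). Of 23 tested partners and glycosylation enzymes of dystroglycan, 8 were higher (34.8%) and 10 lower (43.5%) at 24 h, near the 35.9% and 37.9% of all genes, with a median of -0.05. Utrophin (Utrn), its link to actin, was lower at 24 h (from 275, 301, and 297 CPM to 191, 191, and 191 CPM), and dystrophin (Dmd) had at most 3 counts in a library. Sspn and Sntb1, members of the dystrophin complex, were lower with log2 fold changes of -2.03 and -1.64.

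**Figure D5:**
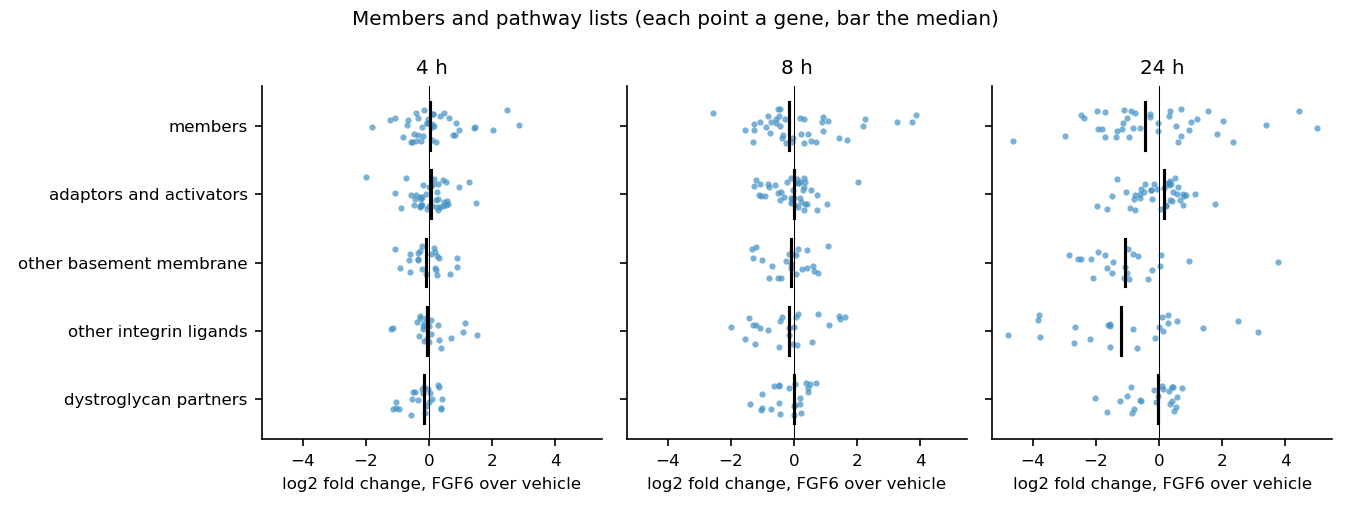
Log2 fold change of FGF6 over vehicle at 4, 8, and 24 h for the 40 members and the 4 lists of related genes, with a point for each gene tested and a bar at the median. Points with a group at or under 3 counts per library (Itga2 at 4 h, Tnn at 24 h) are left out of the points but not of the medians. At 24 h the medians are -0.45 for members, 0.14 for adaptors and activators, -1.09 for other basement membrane genes, -1.20 for other ligands, and -0.05 for dystroglycan partners.

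Markers of other cells were also read at 24 h. The summed level of 5 endothelial markers was 0.965 to 1.30 CPM in vehicle and 3.74 to 5.73 CPM in FGF6 cells, that of 5 epithelial markers 0.168 to 0.525 and 1.57 to 2.57 CPM, that of 5 muscle markers 7.36 to 9.75 and 1.86 to 2.35 CPM, and that of 5 mature adipocyte markers 156 to 178 and 63.4 to 70.1 CPM. Single genes carried some of these sums. Of the endothelial markers, Cdh5 held at most 0.0905 CPM in vehicle and 2.90 to 4.16 CPM in FGF6 libraries, whereas Kdr was not called (0.589 to 1.16 and 0.807 to 1.35 CPM, edgeR FDR 0.281) and the other 3 had too few counts for a test. Krt8 and Krt18 were the 2 epithelial markers tested, and both were higher, at no more than 1.17 CPM. Fabp4 held 149 to 173 CPM in vehicle and 63.3 to 69.8 CPM in FGF6 libraries and was nearly the whole adipocyte sum, and Adipoq, Plin1, and Cidec, each under 5 CPM, were lower as well. Pecam1 had at most 7 counts in a library and Tie1 at most 2, Epcam had at most 5, and Myf5 and Lep had none. The part of these cell types in the members' values was not tested.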

How the data were processed

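RNA was sequenced by the study in 18 libraries, 3 for each of 6 groups. The authors aligned reads to GRCm38 with STAR and deposited raw counts per gene, made with featureCounts of Subread on GENCODE annotation. Versions, the annotation release, strandedness, and the treatment of multimapping reads are not given in the sources used here. Gene models were read from GENCODE M21, in which 98.5% of the identifiers were found. Genes that passed edgeR's filterByExpr (15071) were scaled by TMM and fitted together over the 18 libraries with edgeR's quasi-likelihood test (edgeR 4.0.16, limma 3.58.1, R 4.3.3). The p-values were adjusted by Benjamini-Hochberg over all genes tested, and SEs are those implied by the test. Totals of 24327816 to 33471980 counts make 3 counts worth 0.0905 to 0.126 CPM. Values of 2 genes are not reported here. Full statistics went to the members with the largest changes without overlap and a mean of at least 1 CPM, and to the most abundant of each class. The members and the lists of related genes were chosen with earlier results of these data known. DESeq2 1.42.0, limma with voom, other scaling factors, filters, the study's FDR threshold of 0.25, a replicate block, and leaving out each library were the alternatives. Replicate numbers were not taken to pair libraries.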

Additional observations from a re-analysis of the deposited data

Results flagged for a closer look

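For 31 of the 40 members tested, the difference between FGF6 and vehicle was not the same at 24 h as at 4 h by the interaction term of edgeR's quasi-likelihood test. Such a difference was common in these data: over all genes tested, 28.3% had a larger and 25.2% a smaller effect at 24 h. The values below are the log2 fold change at 24 h minus that at 4 h. Larger means more positive and smaller means more negative. A decrease that deepened with time, as for Itgad, and an increase that shrank, as for Itga5, both count as smaller. Among the 8 larger differences were those of Itgb7 (2.95), Itga6 (2.52), Itga8 (1.52), Itga3 (0.69), Fn1 (0.39), Lamb1 (0.24), and Itga7 (0.22). Itga8 differs because its decrease at 4 h was not called at 24 h, and Itga7 lost this call with DESeq2, with no low-count filter, and under a stricter filter of 10 counts in each library. Among integrin alpha subunits, the smaller differences were those of Itgad (-4.46), Itgax (-1.90), Itgal (-1.27), Itga1 (-0.70), Itga2b (-0.54), Itga5 (-0.45), and Itgav (-0.13). Among beta subunits they were those of Itgb3 (-0.81), Itgb4 (-0.76), Itgb5 (-0.62), and Itgb8 (-0.61). The laminin chains Lama4 (-2.77), Lama2 (-2.48), Lama3 (-2.05), Lamb2 (-1.38), Lamc1 (-0.88), and Lama5 (-0.62) also had smaller values. So did Nid2 (-1.76), Nid1 (-1.07), Agrn (-0.98), Hspg2 (-0.91), Itgb3bp (-0.35), and Dag1 (-0.19). The differences of Dag1, Itgav, and Itgb3bp were not called with library sizes alone.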

How the results depend on the processing

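The counts of members called at 4, 8, and 24 h stayed within 1.5 times their reported values under every alternative, except that 5 members were higher by at least 2-fold at 8 h and 5 at 24 h when at least 10 counts were required in every library, which leaves fewer members to test. Leaving out 1 library at a time gave 15 to 16 members higher and 21 to 22 lower at 24 h, and 15 to 16 higher and 14 to 16 lower at 4 h. Of 4095 values for single members under the alternatives, 3948 kept their direction and their side of the threshold, 85 lost a call, 12 gained one, and 50 changed sign. Every value that changed sign was uncalled in the reported fit. Library sizes alone moved the median of all genes by -0.1 at 4 h and -0.06 at 8 h, and with it the calls of Agrn, Fn1, Lamc1, and Nid1 at 4 h were lost. With that scaling Itgal was -0.01 at 4 h, and the differences between 24 and 4 h were 0.08 for Itgae and 0.07 for Itgb1 (0.03 and 0.01 with upper-quartile factors). Itgae at 4 h was 0.0 with DESeq2, 0.1 with limma and voom, and 0.01 with the libraries of that time alone, and Nid1 at 8 h was 0.02 with DESeq2 and 0.01 with the libraries of that time alone. Without single libraries, Nid1 ranged from -0.03 to 0.02 at 8 h, and Itgae from -0.35 to 0.58 at 4 h, -0.49 to 0.12 at 8 h, -0.18 to 0.25 at 24 h, and -0.62 to 0.31 for its difference between times. Itga9 ranged from -0.32 to 0.3 at 24 h, Itga10 from -0.20 to 0.1 and Itgax from -0.18 to 0.01 at 4 h. The difference between times ranged from -0.06 to 0.02 for Itgb1, -0.01 to 0.25 for Itgb2, and -0.66 to 0.05 for Lamb3.

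With the replicate number as a block, 159 of 160 values kept their call and Itgb4 at 8 h (-0.46) lost it. Deviations of same-numbered libraries correlated at -0.0275 to 0.0486, so the numbers were not taken to pair libraries. Members with under about 10 counts a library are limited by depth. Without vehicle replicate 3 at 24 h, an alternative chosen after seeing the data, the counts higher and lower at 24 h were 3 and 19 for other basement membrane components, 7 and 14 for other ligands, 20 and 16 for adaptors and activators, and 10 and 9 for dystroglycan partners. Without it the differences between times of Itgav (-0.10) and Itgb3bp (-0.27) lost their call.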
